A study of Mus musculus with 17 samples.

Results

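Hepatocytes divide their metabolic work along the liver lobule, and transcripts that mark the zones of this division were measured in sorted Kupffer cells (KCs) of mice, macrophages that live in the liver sinusoids. The 37 genes described here were taken by symbol from lists of known zonated hepatocyte genes, 19 of them pericentral and 18 periportal, out of the 25124 genes in each of 3 deposited expression tables. All 37 were found in every table.

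In the lobule, blood enters at the portal vein and leaves at the central vein. Periportal hepatocytes are known for urea synthesis, gluconeogenesis and amino acid breakdown, and pericentral hepatocytes for glutamine synthesis, drug oxidation by cytochrome P450 enzymes and bile acid synthesis. Wnt signals from endothelial cells of the central vein keep the pericentral programme on through β-catenin and TCF/LEF factors. KCs do not make most of these enzymes, so that in a KC sample such transcripts are commonly read as RNA of hepatocytes that was carried along in the sort or taken up. For a gene made by both cell types, the share of either cell in its value is unknown here. In these bulk samples, fewer hepatocytes or fragments of them and less of a transcript per hepatocyte cannot be told apart.

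The study sorted KCs from digested livers and sequenced their RNA after amplification. The TIM4+CD206+ KCs and the TIM4+CD206high KCs came each from 3 tumour-free samples (untreated) and 3 tumour-bearing samples taken 2 weeks after intraportal injection of tumour cells, which in the study were mouse KPC pancreatic adenocarcinoma cells. A further table held KCs without tumour, untreated, from 3 samples of genotype Id3 f/f (here the control) and 2 of genotype Clec4f-cre Id3 f/f (here the Id3-deleted samples). In these, the gene of the transcriptional regulator ID3 carries loxP sites in both groups, and the Cre recombinase of the deleted samples is driven by Clec4f, a gene used to mark KCs. The labels give neither age nor sex. Each table was normalised apart from the others, so that levels are compared only within a table. The log2 values behave as regularised ones do, a treatment that draws genes with few reads towards their mean and so makes their differences too small.

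KC markers had a mean log2 level over 15 genes between 15.46 and 16.67 across the 17 samples, in every sample above the means of the members and of the plasma protein transcripts. In TIM4+CD206+ KCs their mean was 16.26 to 16.67 without and 16.02 to 16.16 with tumour, and 2 of 15 were called lower. For TIM4+CD206high KCs it was 15.88 to 16.28 against 15.77 to 15.92, with none called. In control samples it was 15.63 to 15.74 and in Id3-deleted samples 15.46 to 15.48. There 6 of 15, Id3 among them, were called lower and 3 higher. Other cells were present as well. In TIM4+CD206high KCs the summed log2 level of 12 endothelial markers (the log2 of the sum of their linear values) was 17.94 to 18.56 without tumour. With tumour it was 17.29 to 17.56, and 4 of 12 endothelial markers fell. In TIM4+CD206+ KCs the summed level was 14.12 to 15.15 without and 14.16 to 14.43 with tumour, and no endothelial marker was called. These levels are not compared between the subsets. Epithelial markers of tumour or bile duct rose with tumour in both subsets, 10 of 11 tested in TIM4+CD206+ and 11 of 11 in TIM4+CD206high KCs, from a summed level of at most 12.12 and 12.19 to at least 15.61 and 16.27. Neutrophil markers were higher with tumour in 4 of 7 and 4 of 6 tested and monocyte markers in 2 of 6 and 2 of 6, and B cell markers were lower in 3 of 4 and 2 of 4, in TIM4+CD206+ and TIM4+CD206high KCs. Stellate cell markers were lower in 3 of 10 in TIM4+CD206high KCs. The part of such cells in the values of the members was not tested. Hepatocyte RNA was seen in every sample through plasma protein transcripts such as Alb, the gene of albumin. The labels do not say whether the samples of a group came from separate animals. For the Id3 comparison the study counts mice, 2 Clec4f-cre Id3 f/f and 3 Id3 f/f littermates. The p-values measure the spread between the samples used.

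In TIM4+CD206+ KCs, zonated hepatocyte transcripts were lower in the tumour-bearing samples, in both zones. Of 35 members that passed the filter, 17 fell and none rose at an adjusted p under 0.05 (limma, Benjamini-Hochberg over 13233 genes), where 0.998% of all genes tested were called lower and 2.55% higher. At an unadjusted p under 0.05, 26 were lower and 0 higher, where 1037 and 1235 of all 13233 genes were. All 35 had a negative log2 fold change. The pericentral members supplied 6 of 17 tested and the periportal members 11 of 18. Lect2 and Cyp7a1 did not pass the filter. Same-numbered samples varied together to some degree in this subset, and with the replicate as a block 22 members were lower, against 3.09% of all genes. With single samples left out this count, without the block, was lower in 5 of 6 fits. Without tumour-free sample 1, 2 or 3 it was 10, 22 and 8, and without tumour-bearing sample 1, 2 or 3 it was 9, 7 and 11. Calls over all genes were not counted in these fits.

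Among pericentral members, Car3, which encodes a carbonic anhydrase abundant in liver and fat, changed most. Its log2 values were 9.96, 9.38 and 8.73 in the tumour-free and 5.29, 5.76 and 7.10 in the tumour-bearing samples. The groups were apart, with tumour-bearing sample 3 the highest of its group, and the log2 fold change was −3.31 ± 0.50 (SE, n = 3 and 3, adjusted p = 0.00957). Inmt, an N-methyltransferase of small amines, stood at 10.39, 9.28 and 10.13 without tumour and at 7.29, 6.80 and 7.84 with it. These groups did not overlap either, and Inmt fell by 2.62 on the log2 scale (SE 0.37, adjusted p = 0.00687).

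Of the 8 pericentral P450 genes tested, Cyp2e1, Cyp1a2 and Cyp2c50 fell. Cyp2e1, whose enzyme oxidises ethanol, had values of 10.34, 9.26 and 10.48 in tumour-free samples and of 8.05, 8.61 and 7.94 in tumour-bearing ones. Tumour-free sample 2 was the lowest of its group and still above every tumour-bearing sample, with a log2 fold change of −1.82 ± 0.35 and an adjusted p of 0.0298. For Cyp1a2, which acts on caffeine and aromatic amines, the values were 7.63, 6.65 and 6.63 against 4.65, 4.68 and 5.50, without overlap (log2 fold change −2.03 ± 0.36, adjusted p = 0.0204). Cyp2c29, a P450 of drug and fatty acid oxidation, gave 7.49, 6.59 and 7.43 without and 5.37, 5.12 and 6.24 with tumour. Its groups did not overlap, but the log2 fold change of −1.59 ± 0.37 had an adjusted p of 0.0613, and of 0.00454 with the replicate as a block. Likewise Cyp3a11, the main drug-oxidising P450 of its family in mouse liver, had a log2 fold change of −1.75 ± 0.41 with an adjusted p of 0.0613, or 0.011 with the block. Cyp2c50 was at the border of the threshold (−1.55 ± 0.34, adjusted p = 0.0496).

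Glutamine synthesis behaved otherwise in size. Glul, the glutamine synthetase of the last pericentral cell layer, was at 13.90, 13.32 and 13.91 in tumour-free and 13.74, 13.31 and 13.34 in tumour-bearing samples. The groups overlapped, and the log2 fold change was −0.24 ± 0.21 (adjusted p = 0.647). Oat, an aminotransferase of ornithine, gave −0.42 ± 0.16 (adjusted p = 0.237). By contrast Slc1a2, the glutamate transporter of the same cells, fell by 1.64 on the log2 scale (SE 0.23, adjusted p = 0.00717). Glul, Oat and Aldh1a1, a retinal dehydrogenase (−0.37), are also known to be expressed outside hepatocytes. The remaining pericentral members did not pass the threshold, with log2 fold changes of −0.85 for Gsta3 (glutathione conjugation), −0.64 for Rgn and −0.42 for Gulo (both of vitamin C synthesis), −0.57 for Cyp2c54, −0.55 for Cyp2c37 and −0.35 for Cyp2a5. Of these, Cyp2c54, Cyp2c37, Cyp2a5 and Gulo had low values in every sample, where the scale understates differences.

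Among periportal members, Slc38a3, a glutamine transporter, fell most. It was at 7.43, 7.11 and 7.87 in the tumour-free and at 4.67, 4.92 and 4.74 in the tumour-bearing samples, with the groups far apart (log2 fold change −2.69 ± 0.26, adjusted p = 9.9e-04). Upp2, a uridine phosphorylase, had values of 7.99, 6.03 and 7.14 against 4.43, 4.35 and 4.40. The tumour-free samples spread widely, with sample 2 the lowest, and still lay above all tumour-bearing ones (log2 fold change −2.66 ± 0.44, adjusted p = 0.0149). Cyp2f2, a P450 gene used to mark periportal cells, fell from 8.09, 7.75 and 7.56 to 5.91, 5.0 and 5.25, again without overlap (−2.42 ± 0.30, adjusted p = 0.00382). Agxt, which detoxifies glyoxylate, was at 9.90, 8.78 and 10.16 against 7.90, 7.21 and 7.02, also without overlap (−2.24 ± 0.40, adjusted p = 0.0209).

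The urea cycle and the gluconeogenic members were less uniform. Cps1, the first enzyme of the urea cycle, was at 8.03, 7.52 and 7.10 in tumour-free and 6.88, 6.83 and 5.90 in tumour-bearing samples. The highest tumour-bearing value lay just under the lowest tumour-free one, and the log2 fold change of −1.02 ± 0.36 had an adjusted p of 0.194, or 0.0369 with the block. Ass1, a later enzyme of the cycle, gave 10.62, 9.16 and 10.48 against 8.95, 8.73 and 8.98. Tumour-free sample 2 was close to the tumour-bearing group, and the log2 fold change was −1.19 ± 0.37 (adjusted p = 0.138, or 0.015 with the block). Asl, the next enzyme, had a log2 fold change of −0.17 ± 0.27 (adjusted p = 0.838), with overlapping groups. Both Ass1 and Asl are expressed in macrophages too.

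Pck1, the enzyme that commits carbon to glucose synthesis, was at 9.76, 9.81 and 9.67 in tumour-free and 8.37, 8.27 and 8.60 in tumour-bearing samples. Both groups were narrow and far apart, and Pck1 fell by 1.34 on the log2 scale (SE 0.20, adjusted p = 0.00832). Fbp1, which acts later in the same pathway, fell as well (−1.66, adjusted p = 0.0197). Of the amino acid enzymes, Tat (tyrosine), Hal (histidine), Sds (serine) and Etnppl (phosphoethanolamine) fell, with log2 fold changes of −1.71, −1.65, −1.42 and −1.05 and adjusted p of 0.00459, 0.00645, 0.0378 and 0.0348. Uox, the urate oxidase, fell by 1.61 (adjusted p = 0.0133). Gls2, the liver glutaminase, had a log2 fold change of −1.18 ± 0.39 (adjusted p = 0.168, or 0.0149 with the block). Apoa4 (−0.44), the lipid droplet gene Hsd17b13 (−0.47) and Pigr (−0.22), the receptor that carries IgA into bile, did not pass the threshold.

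**Figure D1:**
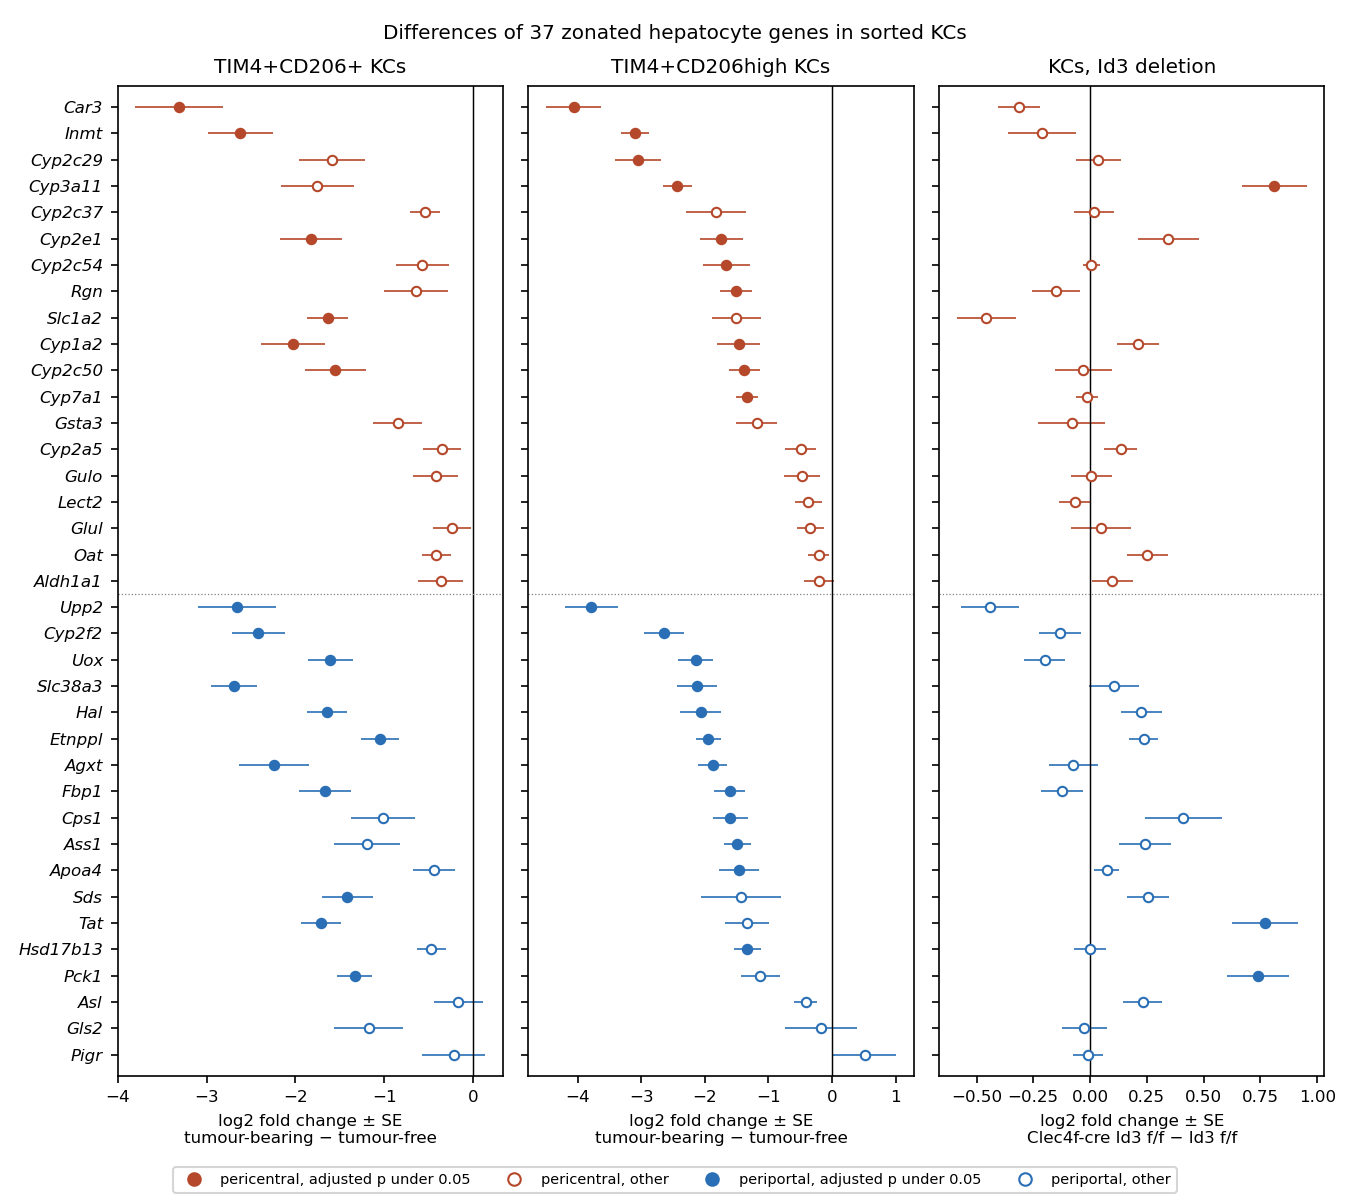
Log2 fold change with its SE for each zonated member in the 3 comparisons, pericentral members above the dotted line and periportal members under it, ordered by the value in TIM4+CD206high KCs. Filled points have an adjusted p under 0.05 and the horizontal axes differ between panels. With tumour nearly all points lie left of 0, and with Id3 deletion they lie on both sides of it.

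TIM4+CD206high KCs showed the same picture on a wider range. All 37 members passed the filter, 22 fell and none rose, where 2.03% of 14561 genes tested were called lower and 5.21% higher. The count was 10 of 19 pericentral and 12 of 18 periportal members. Cyp7a1, among the 10, passed the filter only through its tumour-free samples, as did Cyp2c37, which was not called. At an unadjusted p under 0.05, 27 were lower and 0 higher, where 1248 and 1821 of all 14561 genes were. Of the 37 log2 fold changes 36 were negative, and the groups were apart in 28 members, all lower with tumour, against 15.2% of all genes. For TIM4+CD206+ KCs this held for 27 of 35 members, against 10.5%. Without tumour-bearing sample 2 the count called lower was 14.

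Car3 again moved most of the pericentral members. Its values were 11.44, 12.60 and 10.78 in the tumour-free and 7.30, 7.64 and 7.71 in the tumour-bearing samples. The lowest tumour-free value was far above the highest tumour-bearing one, and the log2 fold change was −4.06 ± 0.44 (adjusted p = 0.00162), the most negative of all genes tested in this table. Inmt went from 8.97, 9.06 and 9.27 to 6.04, 5.75 and 6.22, with a narrow spread in both groups (−3.10 ± 0.22, adjusted p = 2.0e-04).

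Among P450 genes, Cyp2c29 was at 8.19, 7.77 and 8.44 in tumour-free and 5.41, 4.36 and 5.49 in tumour-bearing samples. Tumour-bearing sample 2 was the lowest, and the groups were apart (−3.05 ± 0.36, adjusted p = 0.00242). Cyp3a11 had 10.23, 9.70 and 10.37 against 7.59, 7.81 and 7.61, again without overlap (−2.43 ± 0.23, adjusted p = 9.3e-04). Cyp2e1 was at 9.47, 9.12 and 10.29 against 8.13, 7.50 and 8.04. Tumour-free sample 3 was highest here, and the log2 fold change was −1.74 ± 0.34 (adjusted p = 0.0245). Cyp7a1, the rate-limiting enzyme of bile acid synthesis, fell by 1.34 (limma, adjusted p = 0.00385). It was at a low 4.14, 4.20 and 4.51 in tumour-free and 2.87, 2.89 and 3.09 in tumour-bearing samples. All its tumour-bearing values lay under the filter of 3.32. It was thus tested only through the group where it is high, and its call adds little. Cyp1a2, Cyp2c50, Cyp2c54 and Rgn also fell, with log2 fold changes of −1.47, −1.38, −1.66 and −1.51 and adjusted p of 0.0456, 0.0147, 0.0399 and 0.0132. The 4 Cyp2c members lie in 1 cluster (GRCm38, Cyp2c29 at chr19:39287044-39330713, Cyp2c37 at chr19:39992424-40012243, Cyp2c54 at chr19:40037939-40073845 and Cyp2c50 at chr19:40089679-40113955), and reads of such close copies may be divided between them in counting, so that the values of single Cyp2c genes are uncertain.

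Glul was once more little changed, at 12.90, 13.06 and 13.64 against 12.91, 12.90 and 12.77. The groups met at the same level, apart from the higher tumour-free sample 3 (−0.34 ± 0.22, adjusted p = 0.397). Oat (−0.21), Aldh1a1 (−0.21), Gulo (−0.47), Cyp2a5 (−0.50) and Lect2 (−0.37), a secreted chemotactic protein, had small values that did not pass the threshold. For Slc1a2, Cyp2c37 and Gsta3 the log2 fold changes were −1.50 ± 0.39, −1.83 ± 0.47 and −1.18 ± 0.32, with adjusted p of 0.0661, 0.0671 and 0.079.

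Of the periportal members, Upp2 had the largest difference, with values of 8.47, 9.61 and 8.47 in the tumour-free and 5.27, 4.45 and 5.49 in the tumour-bearing samples. Tumour-free sample 2 was the highest, and the groups were far apart (−3.78 ± 0.41, adjusted p = 0.00169). Cyp2f2 was at 8.13, 8.63 and 7.55 against 5.38, 5.26 and 5.74, without overlap (−2.64 ± 0.31, adjusted p = 0.00257). Uox stood at 10.93, 11.73 and 11.20 against 9.46, 9.23 and 8.74, and Slc38a3 at 7.87, 7.24 and 8.39 against 5.56, 5.60 and 5.97. Both were apart in all samples, with log2 fold changes of −2.14 ± 0.28 and −2.12 ± 0.32 (adjusted p = 0.00385 and 0.00802).

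The urea cycle members Cps1 and Ass1 passed the threshold in this subset. Cps1 was at 9.18, 8.61 and 8.35 against 7.36, 7.07 and 6.92, and Ass1 at 9.23, 9.32 and 9.63 against 8.08, 7.94 and 7.68. Neither gene's groups overlapped (−1.60 ± 0.27 and −1.49 ± 0.21, adjusted p = 0.0137 and 0.00599). Pck1, in contrast, had values of 9.81, 10.74 and 9.70 against 9.15, 8.69 and 9.03. The groups were apart, but tumour-free sample 2 was well above the others of its group, and the log2 fold change of −1.13 ± 0.31 had an adjusted p of 0.0826. The same sample was the highest in its group for Sds, Gls2, Hal and Tat, among others. Sds was at 8.40, 9.17 and 6.52 in the tumour-free and 6.64, 6.81 and 6.34 in the tumour-bearing samples, and Gls2 at 6.01, 7.93 and 5.85 against 6.72, 6.65 and 5.89. For Sds tumour-free sample 3 lay within the tumour-bearing range, and for Gls2 all tumour-free samples but sample 2 did or lay under it. The log2 fold changes were −1.43 ± 0.62 and −0.17 ± 0.57.

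Hal, Agxt, Etnppl, Fbp1, Apoa4 and Hsd17b13 fell as well, with log2 fold changes of −2.07, −1.87, −1.94, −1.61, −1.46 and −1.33 (adjusted p = 0.00833, 0.00293, 0.00109, 0.0079, 0.0349 and 0.00921). Tat had a log2 fold change of −1.34 ± 0.34 (adjusted p = 0.0641) and Asl of −0.42 ± 0.18 (adjusted p = 0.256). Pigr was the 1 member with a positive value, 0.51 ± 0.50 (adjusted p = 0.568). It was at 8.45, 8.0 and 9.45 against 8.89, 10.03 and 8.52 with overlapping groups, and bile duct epithelium makes Pigr too. The 11 epithelial markers tested rose in the same samples, and their part in this value was not tested.

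**Figure D2:**
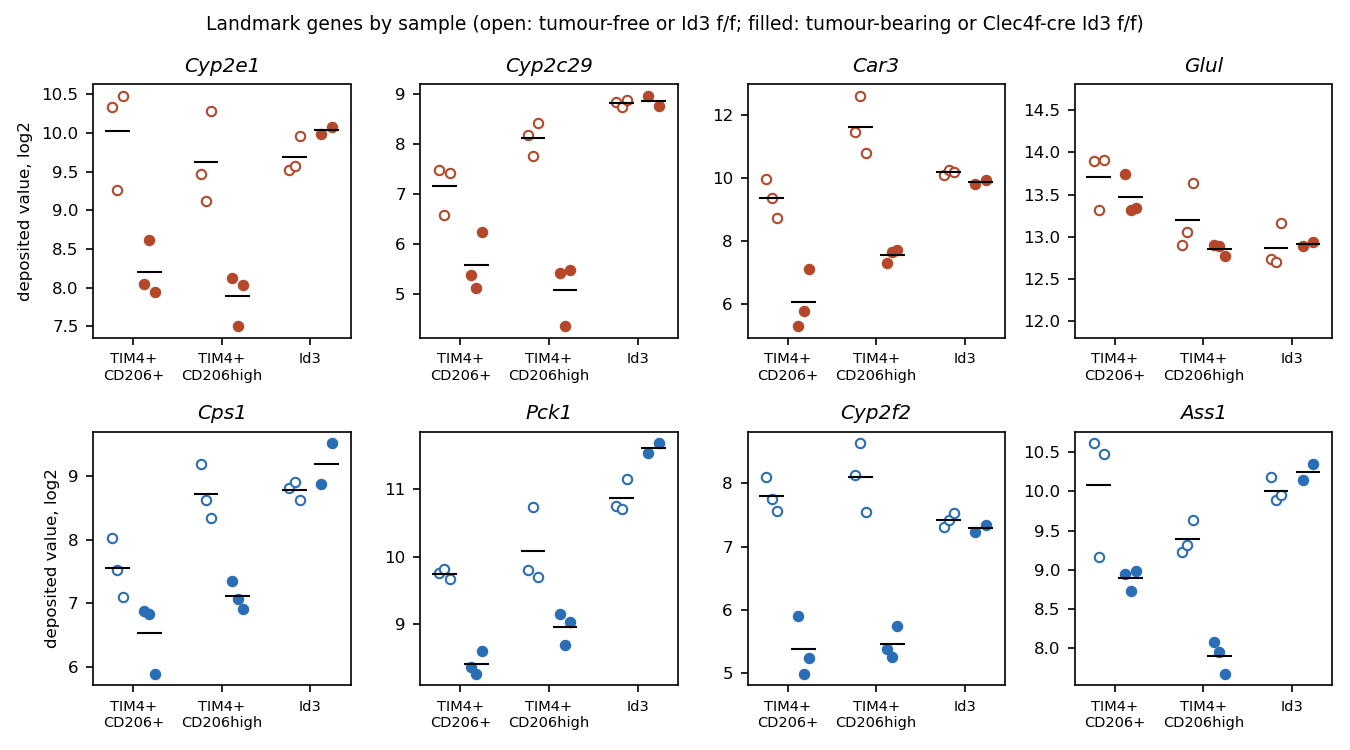
Log2 value of 8 landmark genes in every sample, by table, with open points for tumour-free or control samples, filled points for tumour-bearing or Id3-deleted samples, and a line at each group mean (upper row pericentral, lower row periportal). With tumour, all filled points lie under all open ones in both subsets for every gene but Glul, whereas the Id3 groups lie close together, furthest apart for Pck1. Levels are comparable within a table only.

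In TIM4+CD206+ KCs the periportal median lay further from 0 than the pericentral one, and in TIM4+CD206high KCs they were close. The median log2 fold change in the former was −0.85 over 17 pericentral and −1.38 over 18 periportal members, beside 0.017 over all genes tested. Without 7 members known to be made outside hepatocytes as well (Glul, Oat, Aldh1a1, Ass1, Asl, Pigr and Fbp1) the medians were −1.57 over 14 and −1.51 over 14. The periportal members then no longer had the lower median. The medians in TIM4+CD206high KCs were −1.47 and −1.55, beside 0.028 over all genes. Without these 7 members they were −1.51 over 16 and −1.74 over 14. The 7 are not every member made elsewhere, as Car3, abundant in fat too, was kept. Members of a zone are not independent replicates, and the difference between zones was not tested.

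The mean over the members of a zone was taken in each sample. In TIM4+CD206+ KCs the pericentral mean was 8.62, 7.98 and 8.38 in tumour-free and 7.01, 7.02 and 7.29 in tumour-bearing samples, and the periportal mean 8.46, 7.95 and 8.22 against 6.90, 6.82 and 6.72. Both zones were lower in every tumour-bearing sample than in any tumour-free one. The pericentral minus periportal difference was 0.12 ± 0.07 without and 0.29 ± 0.25 with tumour (SD, n = 3 and 3), and its ranges overlapped. For TIM4+CD206high KCs the pericentral mean was 8.15, 8.08 and 8.57 against 6.86, 6.66 and 6.82, and the periportal mean 8.58, 9.03 and 8.57 against 7.33, 7.10 and 7.08. The difference between zones was −0.43, −0.94 and 0.0016 in the tumour-free samples and −0.47, −0.44 and −0.26 in the tumour-bearing ones. Tumour-free samples 2 and 3 lay at opposite ends, and all tumour-bearing samples fell between them, so that the balance of the zones differed more among tumour-free samples than between the groups.

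**Figure D3:**
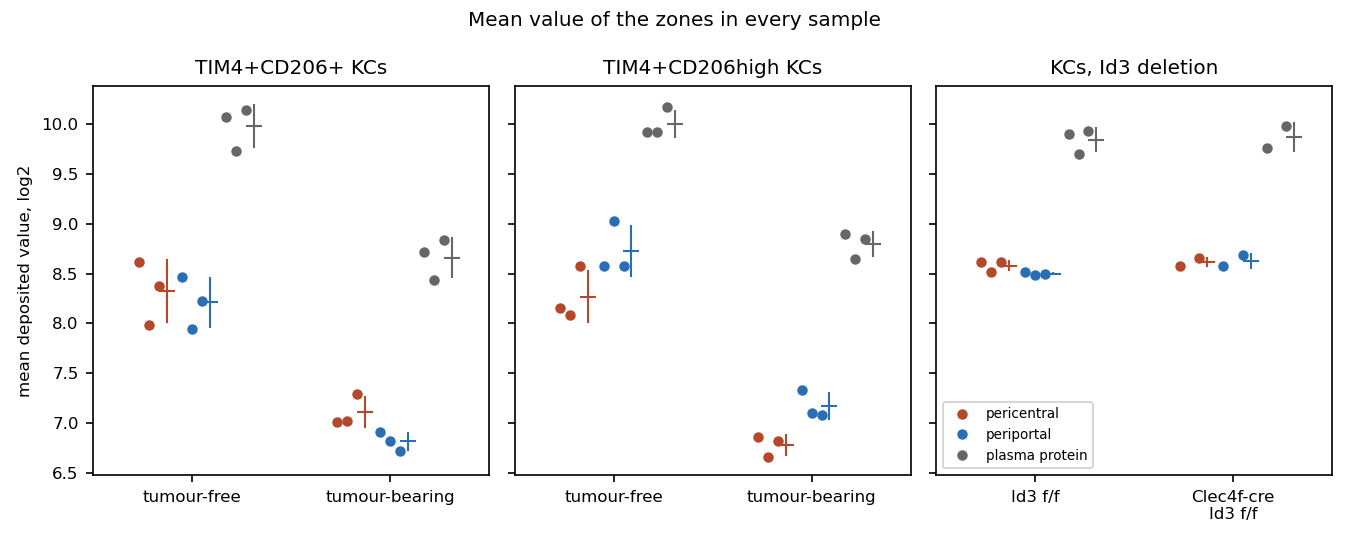
Mean log2 value over the pericentral members, the periportal members and the 20 plasma protein transcripts in every sample (points), with group mean and SD beside them. With tumour all means drop by more than 1 log2 unit in both subsets, and in the Id3 table they stay within 0.3 units.

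The subsets shared many of the falls. Of 35 members tested in both, 13 were called lower in both subsets, namely Cyp2e1, Cyp1a2, Cyp2c50, Car3, Inmt, Hal, Cyp2f2, Agxt, Upp2, Fbp1, Etnppl, Uox and Slc38a3. Slc1a2, Pck1, Sds and Tat were called in TIM4+CD206+ KCs and not in TIM4+CD206high KCs. The reverse held for 9 members, of which Cyp7a1 was not tested in TIM4+CD206+ KCs and the others were Cyp2c29, Cyp2c54, Cyp3a11, Rgn, Cps1, Ass1, Hsd17b13 and Apoa4. With the block, Cyp2c29, Cyp3a11, Cps1 and Ass1 were called lower in TIM4+CD206+ KCs as well, though the labels do not say what same-numbered samples share. The tables were normalised apart, and no difference between the subsets was tested.

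Plasma protein transcripts, which hepatocytes make in all zones, fell beside the members. In TIM4+CD206+ KCs 11 of 20 were called lower (17 with the block), with a median log2 fold change of −1.34 against −1.34 for the 35 zonated members. Alb had a log2 fold change of −2.29, Apoa1 of −1.32, Ahsg of −1.56 and Apoa2 of −1.37 (adjusted p = 0.00281, 0.00554, 0.0255 and 0.0493). In TIM4+CD206high KCs 11 of 20 were lower and 1, Apob, was higher. The medians there were −1.29 for plasma proteins and −1.49 for the members. Alb had a log2 fold change of −2.06, Apoa1 of −0.95, Gc of −1.19 and Ahsg of −1.33 (adjusted p = 0.00891, 0.23, 0.0146 and 0.0562). The mean over the 20 was 10.07, 9.73 and 10.14 in tumour-free and 8.71, 8.43 and 8.83 in tumour-bearing TIM4+CD206+ samples, and 9.92, 9.92 and 10.17 against 8.89, 8.64 and 8.85 in TIM4+CD206high samples.

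To see which members fell further than the mean of the plasma protein transcripts, each sample's value of this mean was subtracted before the fit. On this relative scale most genes appear higher with tumour, 89.5% of all genes in TIM4+CD206+ and 91% in TIM4+CD206high KCs, and only 0.113% and 0.247% appear lower. With so many genes called, the adjustment raises p little, so that adjusted p on this scale lie close to unadjusted ones. The 20 plasma protein transcripts had log2 fold changes from −2.29 to −0.40 in TIM4+CD206+ and from −2.90 to 1.57 in TIM4+CD206high KCs. A member that is lower on this scale fell further than their mean, not further than each of them. The plasma protein transcripts include Apob, which was called higher in TIM4+CD206high KCs. With their median in place of their mean, fewer members were lower in both subsets. Among TIM4+CD206+ samples 6 of 35 members were lower on the scale of the mean. They were the pericentral Car3 (−1.98 ± 0.50, adjusted p = 0.00566) and Inmt (−1.30 ± 0.30, adjusted p = 0.00368) and the periportal Slc38a3 (−1.37), Upp2 (−1.34), Cyp2f2 (−1.09) and Agxt (−0.92), with adjusted p of 0.00249, 0.0133, 0.0131 and 0.0383. In TIM4+CD206high KCs the same 6 were among 11 of 37. Car3 was at −2.86 ± 0.49 (adjusted p = 0.00229), Upp2 at −2.58 ± 0.41 (adjusted p = 0.002), Inmt at −1.89, Cyp2f2 at −1.43, Slc38a3 at −0.92 and Agxt at −0.67, with adjusted p of 6.8e-04, 0.00724, 0.0192 and 0.0293 for the last 4.

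The other 5 in TIM4+CD206high KCs were the P450 genes Cyp2c29 (−1.84, adjusted p = 0.00215) and Cyp3a11 (−1.22, adjusted p = 0.0033) and the periportal Uox (−0.94), Hal (−0.86) and Etnppl (−0.74), with adjusted p of 0.02, 0.0376 and 0.0173. By zone these were 4 pericentral and 7 periportal members, and in TIM4+CD206+ KCs 2 and 4. Cyp2e1, a common pericentral marker, was not called on this scale in either subset (−0.50 ± 0.35 and −0.53 ± 0.28, adjusted p = 0.194 and 0.107). Cps1 gave 0.31 ± 0.43 and −0.40 ± 0.32, Pck1 −0.013 ± 0.24 and 0.079 ± 0.33, and Ass1 0.13 ± 0.31 and −0.29 ± 0.22, all with adjusted p over 0.2. Members that appear higher on this scale, 11 of 35 in TIM4+CD206+ and 8 of 37 in TIM4+CD206high KCs, are fewer than the share of all genes. They were either genes also made outside hepatocytes, such as Glul (1.08 and 0.86), Oat, Asl, Aldh1a1 and Pigr, or genes at low values, such as Gulo and Cyp2a5.

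**Figure D4:**
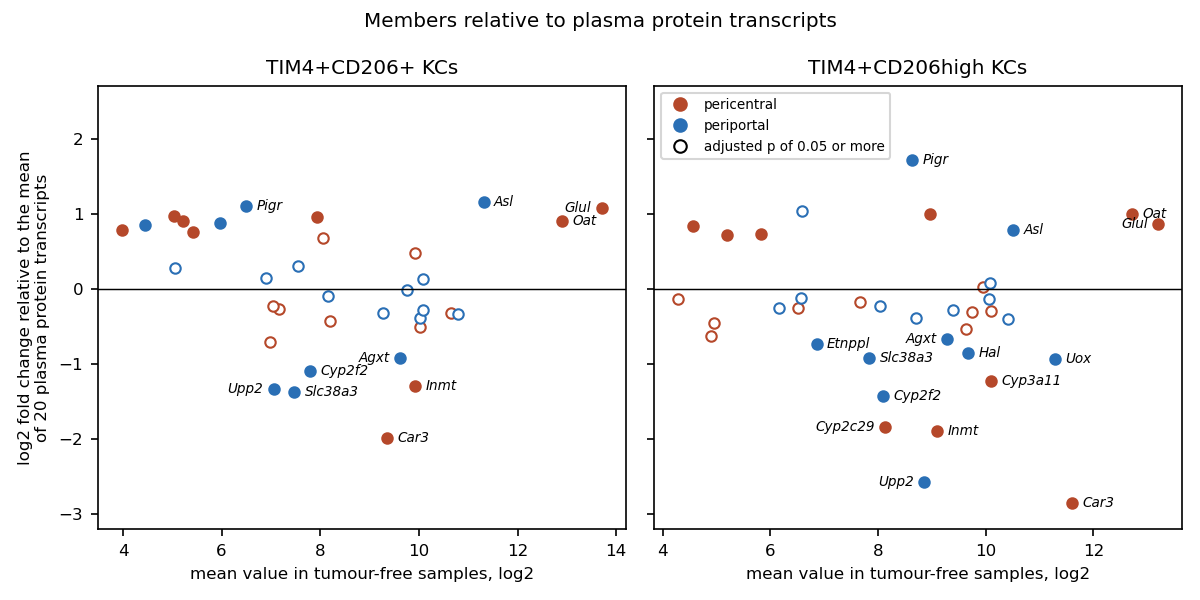
Log2 fold change relative to the mean of 20 plasma protein transcripts against the mean log2 value in tumour-free samples, for the members tested in each subset, with filled points for an adjusted p under 0.05. Car3, Inmt, Upp2, Cyp2f2, Slc38a3 and Agxt lie under 0 in both panels, and Glul, Oat, Asl and Pigr lie above it in both.

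With Id3 deletion no member of either zone was called lower. The deleted gene itself had values of 12.58, 12.46 and 12.82 in the control and 9.83 and 9.82 in the Id3-deleted samples, which differed by −2.80 on the log2 scale (adjusted p = 1.4e-06). All 37 members passed the filter, 3 rose and none fell at an adjusted p under 0.05, where 3.08% of 12833 genes were called higher and 3.37% lower. At an unadjusted p under 0.05, 3 members were lower and 11 higher, where 1502 and 1531 of all 12833 genes were. The median log2 fold change was 0.006 for pericentral and 0.089 for periportal members, beside 0.0014 for all genes and 0.027 for plasma proteins, of which 1 of 20, Fabp1, was lower.

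The members that rose were Cyp3a11, Pck1 and Tat. Cyp3a11 was at 9.33, 8.85 and 9.31 in the control and 10.02 and 9.93 in the Id3-deleted samples. Pck1 had 10.75, 10.70 and 11.16 against 11.53 and 11.68, and Tat 10.33, 10.52 and 10.81 against 11.17 and 11.48. None of the 3 overlapped between groups, and their log2 fold changes were 0.81 ± 0.14, 0.74 ± 0.14 and 0.77 ± 0.15 (SE, n = 3 and 2, adjusted p = 0.0149, 0.017 and 0.0182). Relative to plasma protein transcripts they were 0.78 ± 0.18, 0.71 ± 0.18 and 0.74 ± 0.18 (limma, adjusted p = 0.00223, 0.0117 and 0.00654). The log2 fold changes are smaller and the SE larger there, so that the lower adjusted p are not a firmer result. Without Id3-deleted replicate 1 or 2, where the remaining sample is assumed to vary like the others, no member was called higher, and the highest adjusted p were 0.217, 0.205 and 0.217. Without control replicate 1 or 2 the count called higher was 1, and without replicate 3 it was 5 with 2 called lower. Sex-linked genes go with genotype in this table. Xist was at 6.33 to 6.38 in control and 9.76 to 9.84 in Id3-deleted samples, and the Y-linked Ddx3y at 9.43 to 9.46 and 7.0 to 7.01. Female-biased hepatocyte genes had a summed level of 11.73 to 12.01 in control and 11.77 to 12.12 in Id3-deleted samples. Of 6 tested, 1 was called higher and none lower. For 2 male-biased genes tested the level was 6.56 to 6.74 and 6.79 to 6.83, with none called. What these levels say of the sex of the samples was not tested. Deletion and sex cannot be told apart for the members. Reads of Cyp3a11 may also be shared with close Cyp3a copies, of which Cyp3a44 was at 2.39, 2.34 and 2.35 against 2.35 and 2.35.

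The other members with the largest differences did not pass the threshold. Slc1a2 was at 9.40, 9.16 and 9.63 in control and 8.97 and 8.91 in Id3-deleted samples. Upp2 was at 8.76, 9.08 and 8.70 against 8.32 and 8.49, and Car3 at 10.11, 10.25 and 10.20 against 9.82 and 9.92. These 3, which fell with tumour in at least 1 subset, were lower in both deleted samples than in any control. So were 5 of 37 members in all, Fbp1 and Uox included, and 21.7% of all genes. The log2 fold changes of the 3 were −0.46 ± 0.13, −0.44 ± 0.13 and −0.31 ± 0.093 (limma, adjusted p = 0.0708, 0.0704 and 0.0787). Cyp2e1 was at 9.52, 9.58 and 9.97 against 9.99 and 10.08, and Cps1 at 8.82, 8.90 and 8.62 against 8.87 and 9.51. Cyp2e1 was just apart and Cps1 overlapped, with positive values (0.35 ± 0.13 and 0.41 ± 0.17, adjusted p = 0.157 and 0.18).

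Landmarks of both zones were otherwise close. Glul was at 12.74, 12.70 and 13.16 against 12.90 and 12.94, and Cyp2c29 at 8.84, 8.75 and 8.90 against 8.97 and 8.77. Cyp2f2 had 7.31, 7.42 and 7.53 against 7.24 and 7.34, and Ass1 10.19, 9.89 and 9.96 against 10.15 and 10.35. All 4 overlapped, and their log2 fold changes were 0.049, 0.037, −0.13 and 0.24. The groups were apart in 11 members upward and 5 downward of 37, where 20.2% and 21.7% of all genes were. The remaining members had log2 fold changes from −0.21 to 0.25. The mean over pericentral members was 8.61, 8.51 and 8.62 in control and 8.58 and 8.65 in Id3-deleted samples, and over periportal members 8.52, 8.48 and 8.50 against 8.57 and 8.68. The periportal mean was higher in both deleted samples than in any control, and the pericentral means overlapped.

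Other genes of the same pathways differed in how far they followed the members. Beside the most abundant genes of each list, those named here were chosen after their values were seen. In the urea cycle and ammonia list, Arg1, which KCs and other macrophages make too, rose with tumour in both subsets (2.45 and 1.69, adjusted p = 0.00168 and 0.0218). Otc, an enzyme of the cycle found in hepatocytes, fell in TIM4+CD206high KCs (−1.79, adjusted p = 0.00564). These were the only calls of 7 genes tested in each subset, and the block added 2 lower in TIM4+CD206+ KCs. With Id3 deletion 1 of 7 rose and none fell, the riser being Glud1, the glutamate dehydrogenase (0.44, adjusted p = 0.0168). Of other gluconeogenesis genes, 1 of 9 was lower and 1 higher in TIM4+CD206+ KCs, and 2 of 10 were lower and 1 higher in TIM4+CD206high KCs. The muscle-type gene Fbp2 was the 1 called higher in each (1.27 and 3.28, adjusted p = 0.0254 and 1.8e-04). With Id3 deletion 1 of 9, Got1, was lower (−0.76, adjusted p = 0.00396).

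Amino acid catabolism outside the members fell in 4 of 20 genes in TIM4+CD206+ KCs (13 with the block) and in 7 of 20 in TIM4+CD206high KCs, with none and 1 higher. Hpd, of tyrosine breakdown, was among the genes that fell in both (−1.71 and −1.71, adjusted p = 0.0144 and 0.00851), and Gnmt, of methionine metabolism, fell in TIM4+CD206+ KCs (−1.63, adjusted p = 0.0225). With Id3 deletion 2 of 20 rose and none fell, namely Mat1a (0.85, adjusted p = 0.00878) and Bhmt (0.60, adjusted p = 0.014), both also of methionine metabolism. Of other drug-metabolising genes 3 of 22 were lower in TIM4+CD206+ KCs (8 with the block), 11 of 22 in TIM4+CD206high KCs and none of 23 with Id3 deletion, with 0, 2 and 1 higher. At an unadjusted p under 0.05, 1 of the 23 was lower and 4 were higher. Ephx1, an epoxide hydrolase, had log2 fold changes of −0.48 and −0.33 with tumour and Gstm1, a glutathione transferase, of −0.14 and −0.44. Neither was called, and Adh1, an alcohol dehydrogenase, fell in TIM4+CD206high KCs (−1.66, adjusted p = 0.00691).

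Acute phase genes, which hepatocytes make when inflamed, were called in neither direction in any table, among 13 tested in each (limma). At an unadjusted p under 0.05, 5 were lower and 4 higher in TIM4+CD206+, 2 and 3 in TIM4+CD206high KCs, and 0 and 1 with Id3 deletion. With the block 5 were lower and 3 higher in TIM4+CD206+ KCs. Hp, the gene of haptoglobin, had log2 fold changes of 0.80 and 0.39 with tumour and Hpx, that of hemopexin, of −0.31 and −0.24. The median over the zonated members was −1.34 and −1.49.

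Regulators of zonation and hepatocyte identity were mostly not called. Of 19 tested in TIM4+CD206+ KCs none passed the threshold (limma), or 1 lower with the block, and 2 were lower and 0 higher at an unadjusted p under 0.05. In TIM4+CD206high KCs 5 of 20 rose, among them Hnf4a (1.47, adjusted p = 0.00472) and Ctnnb1, the gene of β-catenin (1.21, adjusted p = 0.0255), and 1, Prox1, fell. Epithelial markers rose in the same samples, and these regulators are also made by tumour or bile duct epithelium. The part of such cells in their values was not tested. With Id3 deletion 1 of 19 rose, Cebpa (0.45, adjusted p = 0.0237), which macrophages express too.

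Promoter sequences from RefSeq (GRCm38.p6, the assembly behind the mm10 build of the submitters' processing notes) were available for 27 of the 37 members, from 250 bases before to 50 after the start. The letters CTTTGAT or CTTTGAA, a core of the TCF/LEF site, on either strand stood in 6 of 14 pericentral promoters (42.9%) and 3 of 13 periportal ones (23.1%), and in 8.87% of the promoters of 18397 genes in the tables. TATAAA stood in 6 pericentral and 2 periportal promoters, against 14.2% of all. GTTAAT, a part of the HNF1 site, stood in 3 and 3, against 7.25%. CAAAGTCCA or CAAAGTTCA, a form of the HNF4A site, stood in 1 and 1, against 0.984%, and TTGCGCAA or TTGCATCAA, forms of the C/EBP site, in none, against 0.413%. The pericentral promoters with the TCF/LEF letters were those of Cyp2e1, Cyp1a2, Cyp2c29, Slc1a2, Lect2 and Aldh1a1, and the periportal ones those of Hal, Upp2 and Uox, so that genes with and without these letters were among those lowered with tumour.

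The 150 bases before the start are shown for landmarks of each zone and for Cyp3a11 and Pck1, which fell with tumour in at least 1 subset and were higher in the Id3-deleted samples. Capitals mark the letters searched. They are the TCF/LEF letters and TATAAA in Cyp2e1 (chr7:140763669-140763818, plus strand) and the HNF4A letters in Cyp3a11 (chr5:145879855-145880004, minus strand). The stretches of Glul (chr1:153899779-153899928, plus strand), Pck1 (chr2:173152923-173153072, plus strand), Cyp2f2 (chr7:27119805-27119954, plus strand) and Ass1 (chr2:31470120-31470269, plus strand) hold none of them, which says only that these letters are not in this window.
Cyp2e1: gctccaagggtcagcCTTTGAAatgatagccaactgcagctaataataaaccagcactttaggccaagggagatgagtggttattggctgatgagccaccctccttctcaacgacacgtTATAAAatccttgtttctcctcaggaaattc
Cyp3a11: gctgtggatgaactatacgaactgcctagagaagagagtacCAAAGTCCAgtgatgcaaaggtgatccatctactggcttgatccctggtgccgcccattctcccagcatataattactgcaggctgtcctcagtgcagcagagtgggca
Glul: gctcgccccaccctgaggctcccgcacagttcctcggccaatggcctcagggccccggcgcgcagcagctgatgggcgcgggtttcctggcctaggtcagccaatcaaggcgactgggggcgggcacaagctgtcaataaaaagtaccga
Pck1: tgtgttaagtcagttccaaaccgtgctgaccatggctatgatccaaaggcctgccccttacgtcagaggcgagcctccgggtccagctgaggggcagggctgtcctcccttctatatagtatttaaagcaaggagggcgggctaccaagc
Cyp2f2: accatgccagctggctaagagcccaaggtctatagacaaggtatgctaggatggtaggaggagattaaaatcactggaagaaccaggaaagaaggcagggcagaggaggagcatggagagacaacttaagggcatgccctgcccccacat
Ass1: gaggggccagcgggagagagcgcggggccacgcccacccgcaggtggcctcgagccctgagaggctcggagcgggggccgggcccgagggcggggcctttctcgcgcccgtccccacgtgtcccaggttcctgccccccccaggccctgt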

How the data were processed

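RNA of sorted Kupffer cells was measured in 17 samples, grouped by the labels. Per the labels and the submitters' processing notes, the authors used STAR 2.7.10a, HTSeq, DESeq2 and mm10. The authors deposited 1 table of log2 values per comparison, normalised within it. The column headers say TPM, but the values behave as regularised log2 values do, with genes without reads at 0. They hold no counts, so the depth of each sample is unknown and no counting interval was given. No per-sample column was left unused (0), and no column held a comparison by the authors.

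Genes with a value of at least log2 of 10 (3.32) in at least 3 samples (2 in the Id3 table) were tested two-sided by limma (version 3.58.1, R 4.3.3) with its mean-variance trend and Benjamini-Hochberg adjustment over all genes tested, at 0.05. The script was tested on simulated data before use. For the relative scale the mean of 20 plasma protein transcripts was subtracted in each sample. Zones were described by counts, medians and the mean over members in each sample, without a test.

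Replicate numbers stood in the labels of every group. Deviations of same-numbered TIM4+CD206+ samples correlated over genes with r = 0.35, 0.56 and 0.15, all over 0.1, although replicate 3 reached 0.30 with a sample of another number, so that blocked values are given for this subset where a call differs. In the other tables r was −0.048, −0.13 and −0.051 and −0.073 and −0.10.

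Every member is accounted for. Values in all samples are given for the 4 members of each zone with the largest absolute log2 fold change in a comparison and for 8 landmarks (Cyp2e1, Glul, Cyp2c29, Car3, Cps1, Pck1, Cyp2f2 and Ass1). Examples of other lists are those with the highest mean value and others chosen after their values were seen. The members and lists were chosen with earlier results of these data known. Alternatives were filters, scaling, the trend, the replicate block, each sample left out and narrower sets of members. Promoters came from RefSeq (GRCm38.p6). Proteins were not analysed here, and some genes of the other lists are not reported here.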

Additional observations from a re-analysis of the deposited data

How the results depend on the processing

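Alternatives were run for every member tested with tumour and for the 12 members whose values in each Id3 sample are given. Among these, called members kept their direction under every alternative run, and the reversals were of members not called. The other Id3 members, some with log2 fold changes near 0, were not followed. In TIM4+CD206+ KCs the log2 fold change of Pigr with single samples left out was −0.45 to 0.11, positive without tumour-free sample 1, and that of Asl −0.50 to 0.0058, positive without tumour-free sample 3. Gls2 in TIM4+CD206high KCs ranged from −0.55 to 0.49 and was positive without tumour-free sample 2 or tumour-bearing sample 3 (0.093). In the Id3 table Glul ranged from −0.036 to 0.20, negative without control sample 1 or 2, and Cyp2c29 from −0.062 to 0.14, negative without control sample 2 or Id3-deleted sample 1.

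With single samples left out, the number of members called lower was 7 to 22 in TIM4+CD206+, 14 to 27 in TIM4+CD206high KCs and 0 to 2 with Id3 deletion, and the number higher with Id3 deletion 0 to 5. Each of these fits rests on fewer samples, and calls over all genes were not counted in them. Relative to plasma protein transcripts the number lower was 7 to 13 in TIM4+CD206high KCs and the number higher 6 to 11 in TIM4+CD206+ KCs and 0 to 3 with Id3 deletion. With the median in place of the mean of the plasma protein transcripts, 7 members were lower in TIM4+CD206high KCs.

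The medians of the zones moved with the choice of members and samples. In TIM4+CD206+ KCs the pericentral median was −1.59 with a filter of 50 in place of 10, −1.57 without the members known outside hepatocytes, −1.24 over members with a mean value of at least 8 (an alternative chosen after seeing the data) and −1.14 to −0.65 with single samples left out. The periportal median over members of at least 8 was −1.63. The pericentral minus periportal difference, 0.53 as reported, was 0.73 with no filter, −0.077 with the filter of 50 and −0.059 without the members known outside hepatocytes, so that its sign depended on the members counted. In TIM4+CD206high KCs quantile normalisation gave medians of −1.69 and −1.80, and with single samples left out the pericentral median was −1.55 to −1.23 and the difference −0.034 to 0.51. Median centring shifted all genes of this table by −0.16 on the log2 scale.

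With Id3 deletion the pericentral median was −0.026 to 0.063 with single samples left out, and the periportal median 0.24 over members of at least 8. The difference was −0.034 with the filter of 50, −0.27 over members of at least 8 and −0.11 to −0.022 with single samples left out.

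With the replicate number as a block, 22 members were lower in TIM4+CD206+ KCs in place of 17. In the other tables same-numbered samples did not vary together. There the block gave 22 lower in TIM4+CD206high KCs, where 209 of all 14561 genes were. Cyp1a2 was lost (adjusted p = 0.0613, limma) and Slc1a2 gained (0.0245). With Id3 deletion it gave 4 members lower and 6 higher, where 1051 and 1038 of all 12833 genes were. The zone difference there was −0.023, and 0 members were higher relative to plasma proteins. The Id3 fit with a block has 1 residual degree of freedom. Of these single members under all alternatives (12 in the Id3 table), 351, 385 and 109 values in the 3 tables kept direction and side of the threshold, 47, 31 and 10 lost a call and 14, 19 and 9 gained one. The cause of these changes was not tested. The regularised scale limits what low genes such as Cyp7a1 and Lect2 can show.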
